A study of Mus musculus with 165 samples.

Results

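The step from 4h to 8h after OHT in GCSF was followed in 6 libraries of PUER cells, 3 from GCSF-OHT 4h and 3 from GCSF-OHT 8h, 2 of the 56 groups of libraries in the deposited table. The libraries were picked by their titles, which give the cytokine, the inducer and the time point, and no measured value entered the choice. PUER cells are a myeloid progenitor line, labelled bone marrow-derived progenitors of genotype Spi1-/-, that lacks PU.1 (encoded by Spi1) and carries PU.1 joined to the part of the estrogen receptor that binds ligand. 4-hydroxy-tamoxifen (OHT) activates that fusion protein. In the GCSF arm, IL3 was replaced by GCSF at 10 ng/ml before OHT was added at 0h, at 100 nM. The GCSF 0h libraries were taken just before OHT was added, and the undifferentiated libraries from IL3 at 5 ng/ml without OHT. In the IL3 arm, used here for comparison, the cells stayed in IL3 at 5 ng/ml and received OHT at 200 nM, so the arms differ in cytokine, in OHT dose and in the earlier change of medium. The mutant line, the fusion gene and OHT are common to all 12 libraries of the 4h and 8h groups. The replicates are separate cultures of 1 line, each time point was kept on a plate of its own, and plate and time point therefore cannot be told apart. Time in GCSF and time in OHT likewise run together, because no GCSF culture without OHT at 8h was analysed here.

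GCSF is the main cytokine of neutrophil production, and in this line GCSF with active PU.1 leads toward neutrophils while IL3 with active PU.1 leads toward macrophages. PU.1 is an ETS-family transcription factor that binds the regulatory elements of many myeloid genes, among them receptors, integrins and oxidase subunits. Dividing progenitors make ribosomes at a high rate and copy their DNA, whereas maturing neutrophils leave the cell cycle and rely largely on glycolysis for energy.

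The 6 libraries held between 18791912 and 28484894 reads on genes, and 3 reads, the detection floor used here, corresponded to normalized counts of 2.07 to 3.14. A normalized count is the number of reads on a gene divided by the library's DESeq2 size factor, without any correction for gene length, so levels were compared between libraries and not between genes. Markers fixed for T and natural killer cells, B cells, erythroid cells, eosinophils and dendritic cells each summed to at most 44.9 in any of the 6 libraries, with 15 of the 29 markers at 0 throughout. Megakaryocyte markers summed to 88.5 to 181.3 at 4h and 80.0 to 136.8 at 8h, and those of mast cells and basophils to 257 to 294 and 284 to 326. The 5 stromal markers, mostly Acta2 reads, summed to between 2775 and 3029 at 4h and between 2294 and 2586 at 8h, with 1 called lower, and their part in the results was not tested. The 10 markers of the neutrophil lineage (granule proteins, S100a8, S100a9, Csf3r, Gfi1 and Cebpe) summed to between 424768 and 428069 at 4h and between 425872 and 434071 at 8h. Those of monocytes and macrophages summed to between 21298 and 22870 at 4h and between 20991 and 23674 at 8h, with C1qa at 0 and Csf1r at or below 4.14. Since RNA was taken from whole cultures, fewer cells of a type and less RNA per cell cannot be told apart. Spi1 reads can come from the fusion gene and do not check the genotype. Spi1 stood at 11698, 11880 and 11012 at 4h and at 10363, 10295 and 10138 at 8h, a log2 fold change of -0.17 ± 0.05 (SE; adjusted p = 0.0042), under the size required for a call.

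GCSF-OHT 8h replicate 1 stood apart from its group in a small number of genes. In the 10414 genes that averaged at least 50 normalized counts, it exceeded both other 8h libraries by more than 1.5 times in 44, and 32 of these 44 were called higher at 8h. GCSF-OHT 8h replicate 2 exceeded its partners by that factor in 62 genes, of which 0 were called higher, and replicate 3 in 3 genes, of which 0 were. For many of the genes in which replicate 1 was high, though not all, the change without it is given as well.

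Between 4h and 8h, 550 genes rose and 371 fell out of 17414 tested, which is 3.16% and 2.13% of them and 5.29% in either direction. A gene was called when limma's moderated test on log2(normalized count + 1) gave an adjusted p under 0.05 and the log2 fold change exceeded 0.58 in either direction. Of the genes called, 513 of the 550 risers and 350 of the 371 fallers had no overlap between the 2 groups of 3 libraries, against 37.7% of all genes tested. The median log2 fold change was 0.86 among the risers and -0.77 among the fallers; 217 risers exceeded 1 on the log2 scale. Protein-coding genes made up 521 of the risers and 331 of the fallers. Without GCSF-OHT 8h replicate 1, 460 genes were called higher, 424 of them among the 550, and 336 lower, 285 of them among the 371. The preceding hour, from 3h to 4h, gave 8 higher and 9 lower calls (0.0459% and 0.0517% of genes tested, 0.0976% in all), and the following 4 hours, from 8h to 12h, gave 391 and 74 (2.25% and 0.425%, or 2.67% in either direction). Each of those comparisons shares 3 libraries with the step.

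The largest rises belonged to genes of low or moderate level at 4h. Smtnl2, a smoothelin-like gene, held 14.02, 25.82 and 25.13 normalized counts at 4h and 708.5, 293 and 261 at 8h. Nos2, the inducible nitric oxide synthase (chr11:78920787-78960254, GRCm38), held 16.8, 23.1 and 18.8 at 4h and 442, 168 and 136 at 8h. Bnip3, a mitochondrial protein of the BCL2 family that takes part in the removal of mitochondria (chr7:138890836-138909519), held 512, 568 and 582 at 4h and 5999, 3129 and 3468 at 8h. In each of these 3 genes the groups were far apart, and GCSF-OHT 8h replicate 1 was the highest library. The log2 fold changes were 4.11 ± 0.26 (SE; adjusted p = 1.35e-27) for Smtnl2, 3.41 ± 0.24 (adjusted p = 1.13e-23) for Nos2 and 2.86 ± 0.18 (adjusted p = 1.35e-27) for Bnip3. Without that library they were 3.66, 2.90 and 2.57.

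The same library was highest in 12 of the 15 largest rises and lay over 1.5 times above both partners in 10. Ankrd37, an ankyrin-repeat gene, rose from 41.1, 60.9 and 70.2 to 593, 347 and 425, with a log2 fold change of 2.96 ± 0.29 (2.75 without that library). Atp7b, a copper-transporting ATPase, rose from 17.8, 14.8 and 12.6 to 202, 82.7 and 55.1, with 2.63 ± 0.24 (2.11 without it). Mgarp, a mitochondrial protein gene, rose by 2.23 ± 0.17, Bcar1, a scaffold of focal adhesions, by 2.16 ± 0.27, and Aldh1l2, a mitochondrial enzyme of folate metabolism, by 2.05 ± 0.24 on the log2 scale. Rgs11, a regulator of G-protein signalling, rose by 1.73 ± 0.18, Arl5c, a small GTPase of the ARF family, by 1.62 ± 0.13, and Fosl1, an AP-1 subunit, by 1.57 ± 0.22. Without replicate 1 these 6 changes were 1.91, 1.70, 1.54, 1.35, 1.42 and 1.19, and all 6 genes were still called.

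A second kind of riser was even across the 8h libraries. Adgre1, an adhesion receptor of macrophages, held 34.6, 23.1 and 24.1 at 4h and 102.09, 102.04 and 109 at 8h. Clec12a, an inhibitory lectin receptor of myeloid cells (chr6:129342691-129365303), held 42.1, 31.4 and 38.7 at 4h and 111.3, 120.7 and 131.1 at 8h. Coro1a, the leukocyte coronin that binds actin, held 233, 202 and 211.5 at 4h and 609, 665 and 700 at 8h. Replicate 1 was not the high library in any of the 3, and the log2 fold changes of 1.92 ± 0.25, 1.68 ± 0.28 and 1.61 ± 0.11 became 1.94, 1.73 and 1.66 without it.

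Among the 15 largest falls, the 8h libraries lay closer together than among the rises. GCSF-OHT 8h replicate 3 was the lowest of them in 8 of the 15. It lay over 1.5 times below both partners in 1, Vav2. Iglon5, a cell adhesion gene of the immunoglobulin superfamily, held 176, 191.8 and 152 at 4h and 36.8, 42.7 and 33.2 at 8h. Nkain1, a membrane protein that interacts with the sodium pump, held 109, 132 and 107.8 at 4h and 31.6, 26.9 and 18.4 at 8h. Vav2, a guanine nucleotide exchange factor, held 330, 371 and 317 at 4h and 144.97, 141.3 and 93.5 at 8h. At 8h, 21.7%, 22.03% and 37.3% of the mean 4h level were left, and the log2 fold changes were -2.18 ± 0.35 (SE; adjusted p = 1.49e-07), -2.17 ± 0.39 (2.32e-06) and -1.44 ± 0.14 (1.17e-15). F2rl3, a thrombin-activated receptor, fell by 1.30 ± 0.25 on the log2 scale, Txnrd3, a thioredoxin reductase, by 1.29 ± 0.12, and Ankrd13b by 1.24 ± 0.13. Eda2r, a receptor for ectodysplasin, fell by 1.22 ± 0.25, Dact3, an antagonist of Wnt signalling, by 1.19 ± 0.23, Lamb1, a laminin chain, by 1.16 ± 0.16, and Mcrip2 by 1.11 ± 0.16. Dusp2, a phosphatase of MAP kinases, held 76.6, 73.8 and 71.2 at 4h and 31.6, 31.03 and 36.7 at 8h (-1.14 ± 0.42; adjusted p = 0.0317), and its call was lost in 7 of the 21 other settings or sets of libraries tried.

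Further fallers among the 15 largest carried or modified small molecules. Slc19a1, the reduced folate carrier (chr10:77032241-77061002), held 291, 267 and 271 at 4h and 149.05, 117.2 and 91.8 at 8h, a log2 fold change of -1.23 ± 0.13. Fpgs, which adds the glutamate chain that keeps folates inside cells, held 522, 519 and 464 at 4h and 208.3, 245 and 227 at 8h (-1.14 ± 0.12). Slc29a1, an equilibrative nucleoside transporter, held 470, 483 and 407 at 4h and 209.3, 234 and 174.8 at 8h (-1.14 ± 0.12). The 8h libraries lay below every 4h library in each of the 3 genes.

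**Figure D1:**
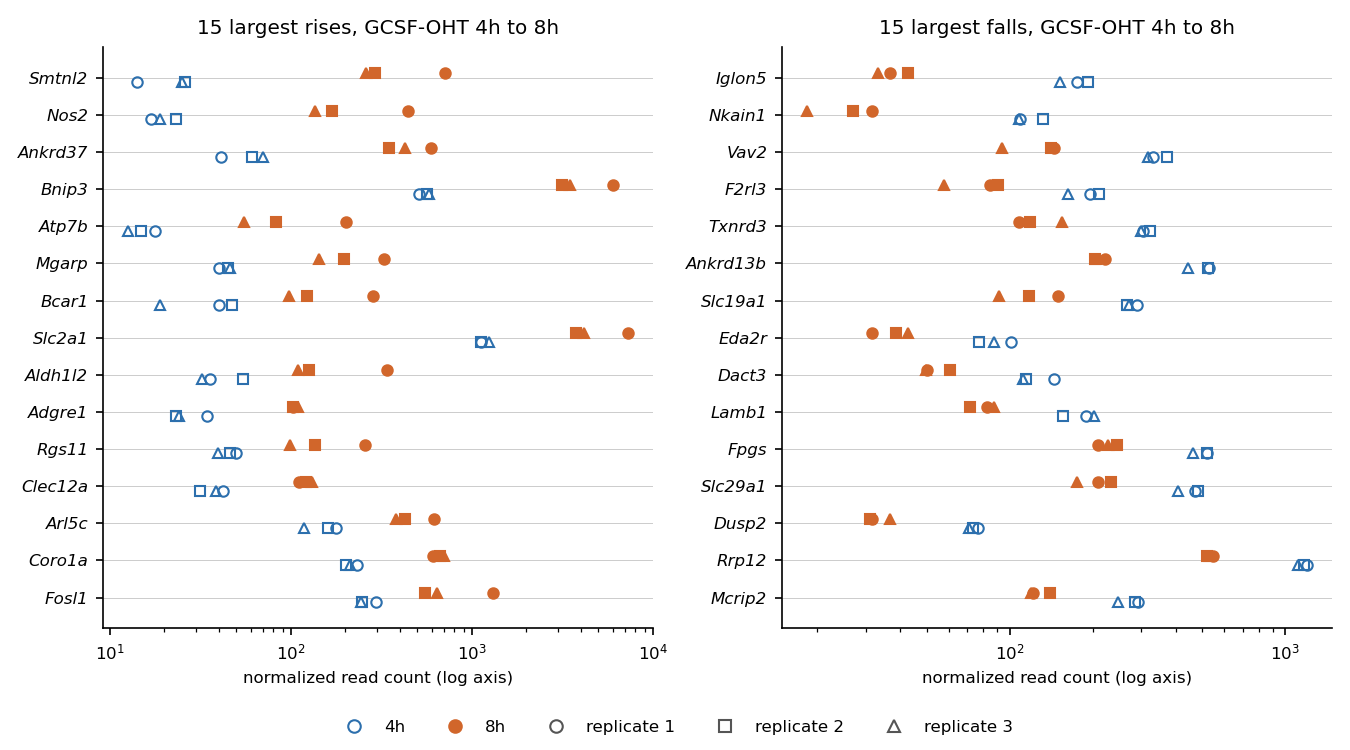
Normalized read counts of the 15 genes with the largest rises (left) and falls (right), on a log axis, with open blue symbols for the 3 GCSF-OHT 4h libraries, filled orange symbols for the 3 GCSF-OHT 8h libraries and the symbol shape giving the replicate. The groups are apart in all 30 genes, and in 12 of the 15 risers the filled circle of replicate 1 is the highest value.

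Promoter sequence was read for the genes with the largest changes, as the 250 bases before each RefSeq start on GRCm38.p6, with 9 of the 15 risers and 14 of the 15 fallers found in the table. Shown, to place matches beside the expression values, are 4 windows that held at least 1 of the 8 motifs fixed for the search. The rule allowed no more, so windows of Eda2r, Slc29a1 and Dusp2 with such motifs were left out. Windows whose only match was ACGTG, searched later, are not shown either. Capitals mark the matches, each sequence runs 5′ to 3′ in the direction of transcription, and positions count back from the start.

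Bnip3, chr7:138909507-138909756, minus strand, an E-box (CACGTG): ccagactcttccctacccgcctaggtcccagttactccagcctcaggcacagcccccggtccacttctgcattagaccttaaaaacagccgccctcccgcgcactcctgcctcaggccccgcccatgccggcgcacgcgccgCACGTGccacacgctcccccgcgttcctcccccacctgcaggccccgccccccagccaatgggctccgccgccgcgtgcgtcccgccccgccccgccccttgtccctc
Nkain1, chr4:130574037-130574286, minus strand, an E-box: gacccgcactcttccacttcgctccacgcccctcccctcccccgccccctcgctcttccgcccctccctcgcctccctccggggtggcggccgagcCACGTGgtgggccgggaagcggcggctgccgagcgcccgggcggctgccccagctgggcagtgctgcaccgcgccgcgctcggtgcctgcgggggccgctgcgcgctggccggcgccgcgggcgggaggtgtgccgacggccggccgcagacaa
Clec12a, chr6:129349994-129350243, plus strand, an AP-1 motif (TGANTCA) 213 bases and a C/EBP motif (TTGCNNAA) 140 bases before the start: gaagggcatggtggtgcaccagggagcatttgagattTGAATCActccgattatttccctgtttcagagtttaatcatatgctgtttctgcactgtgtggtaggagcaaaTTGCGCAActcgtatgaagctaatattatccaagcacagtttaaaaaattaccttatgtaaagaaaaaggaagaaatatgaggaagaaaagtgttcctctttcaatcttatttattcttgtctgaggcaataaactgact
Ankrd13b, chr11:77490043-77490292, minus strand, a C/EBP motif 226 bases and a STAT motif (TTCNNNGAA) 128 bases before the start: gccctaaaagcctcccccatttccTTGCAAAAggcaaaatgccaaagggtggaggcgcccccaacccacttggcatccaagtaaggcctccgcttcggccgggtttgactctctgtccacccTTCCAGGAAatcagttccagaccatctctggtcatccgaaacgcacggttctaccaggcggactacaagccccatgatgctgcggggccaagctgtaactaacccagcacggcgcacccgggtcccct

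An E-box stood before 1 matched riser, Bnip3, and before 3 matched fallers, Nkain1, Slc29a1 and Dusp2. That was 1 of 11 riser windows and 3 of 24 faller windows. On either strand, 6.02% of all 32851 promoter windows of this length hold the motif. The C/EBP, AP-1 and STAT motifs are held by 9.56%, 6.75% and 7.02% of all windows, and the PU.1 motif GAGGAAGT by 2.44%. C/EBP, AP-1 and STAT motifs stood in 1, 1 and 0 of the 11 riser windows and in 2, 0 and 1 of the 24 faller windows. The PU.1 motif stood in 0 of the 11 and 0 of the 24. Over all called genes, 3.94% of riser windows and 3.71% of faller windows held the PU.1 motif, against 2.51% for all genes tested. After the values had been seen, the core that hypoxia-inducible factors bind, ACGTG, was searched as well. It lies inside the E-box CACGTG, and it was present in 5 of 11 windows of the matched risers, in 5 of 24 windows of the matched fallers and in 16.6% of all windows. Over all called genes the share of windows with ACGTG was 18.46% for risers and 18% for fallers, against 20.4% for all genes tested. A match is a run of letters and not evidence of binding.

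Genes that are known to be induced at low oxygen recurred among the largest rises, and a list of 32 such genes was drawn up after these values were seen, so its counts are a description. Of the 32, 22 were called higher and 0 lower, with a median log2 fold change of 0.82, against 3.16% called higher and a median of 0.00 over all genes tested. Slc2a1, the glucose transporter GLUT1 (chr4:119108711-119137983), held 1130, 1119 and 1246 at 4h and 7290, 3772 and 4163 at 8h, a log2 fold change of 2.06 ± 0.16 (SE; adjusted p = 6.64e-21; 1.77 without replicate 1). Vegfa, the endothelial growth factor, held 3996, 3873 and 3863 at 4h and 9862, 6505 and 6646 at 8h (0.94 ± 0.13; 0.75 without it). P4ha1, a collagen prolyl hydroxylase subunit, held 892, 927 and 1017 at 4h and 3048, 2216 and 2333 at 8h (1.41 ± 0.11; 1.27 without it). Replicate 1 was again the highest of the 8h libraries, while all 3 of them lay above all 3 of the 4h libraries. Further risers of the list were Ndrg1 (log2 fold change 1.08 ± 0.13; 0.84 without replicate 1) and Ero1l (0.98 ± 0.13; 0.76 without it). Egln1 (0.74 ± 0.13) and Egln3 (0.70 ± 0.13), oxygen-sensing prolyl hydroxylases, were called with all libraries and not without replicate 1 (0.51 for each). Adm, the hormone adrenomedullin, stood at 0, 3.69 and 1.05 at 4h, near the detection floor, and at 43.9, 12.4 and 8.74 at 8h, and its call did not depend on replicate 1.

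The response was uneven within the list. The geometric mean over its 32 genes was 1436, 1569 and 1548 in the 4h libraries and 4083, 2616 and 2633 in the 8h libraries, so replicate 1 was far above the other pair, which lay close together and above 4h. Without replicate 1, 18 genes were called higher, the calls of Egln1, Egln3, Tpi1 and Bnip3l being lost, and 1 lower (Car9, a carbonic anhydrase), and the median was 0.63. The 10 genes not called with all libraries included abundant enzymes of the glycolysis list: Pgk1 (-0.08 ± 0.11), Eno1 (-0.21 ± 0.10), Gapdh (-0.17 ± 0.09), Aldoa (0.29 ± 0.09) and Ldha (0.36 ± 0.10).

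In the list of glycolysis enzymes, 7 of 26 (26.9%) rose and 0 fell, with a median of 0.32, against 3.16% of all genes called higher. Besides Slc2a1 the risers included the hexokinases Hk2 (1.06 ± 0.11) and Hk3 (0.74 ± 0.06) and the phosphofructokinases Pfkl (1.16 ± 0.12) and Pfkp (0.70 ± 0.11). Tpi1 (0.70 ± 0.12) and Pdk1 (1.13 ± 0.12), a kinase that inhibits pyruvate dehydrogenase, completed them. Slc2a1, Hk2, Pfkl, Tpi1 and Pdk1 also stand in the low-oxygen list, so the counts of the 2 lists are not separate results. Hk3, the hexokinase of myeloid cells, held 2711, 2667 and 2523 at 4h and 4375, 4438 and 4343 at 8h, with no high library. Hk2 held 2722, 2810 and 2914 at 4h and 7054, 4953 and 5728 at 8h, with replicate 1 highest (0.92 without it). Without replicate 1, 5 of the 26 were called, the calls of Pfkp (0.53) and Tpi1 (0.52) being lost, and Pfkl and Pdk1 gave 0.98 and 0.99. Of 42 subunits of the respiratory chain encoded in the nucleus, 0 were called, with a median of -0.01. In the circadian clock list, 4 of 17 rose, against 3.16% of all genes. They were Rora (1.55 ± 0.27), Per1 (0.98 ± 0.16), Bhlhe40 (0.71 ± 0.13), which is also in the low-oxygen list, and Nfil3 (0.68 ± 0.10). Replicate 1 was the high library in these 4 as well, with Per1 at 645 against 419 and 413. Without it the changes were 1.15 for Rora, 0.77 for Per1 and 0.59 for Bhlhe40, and Nfil3 was no longer called (0.56).

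Of 21 Fc and paired immune receptors, 4 rose and 1 fell (median 0.17), against 3.16% of all genes called higher and 2.13% lower. Tyrobp, the adaptor that carries the activating signal of many of these receptors, held 1.87, 7.38 and 8.38 at 4h and 26.5, 32.4 and 24.5 at 8h, a log2 fold change of 2.23 ± 0.30. Pirb, an inhibitory receptor, held 178.5, 163.2 and 166 at 4h and 419, 440 and 414 at 8h (1.32 ± 0.14). Neither gene had an 8h library that stood out, and Clec12a, described above, and Cd300ld (0.94 ± 0.17) completed the risers. Cd33, a sialic acid-binding receptor, fell by 0.61 ± 0.13 on the log2 scale. Pirb, Cd300ld and Lyz1 have close relatives in the genome, among which the assignment of reads is uncertain.

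Of 14 chemoattractant receptors, 5 rose and 0 fell (median 0.45), against 3.16% of all genes called higher. Ccr2, which guides inflammatory monocytes, held 367, 340 and 362 at 4h and 757, 723 and 866 at 8h (1.13 ± 0.15). Cx3cr1, the fractalkine receptor, held 2208, 2343 and 2421 at 4h and 3966, 3710 and 3815 at 8h (0.72 ± 0.07). Ccrl2 (0.64 ± 0.25) and Fpr1, whose 4h values of 2.80, 1.84 and 0 lay at or under the floor, were called close to the threshold, and the count was 3 when the fit was confined to the groups compared or when GCSF-OHT 4h replicate 3 was left out.

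Among integrins and adhesion receptors, 2 of 18 rose (median 0.09), against 3.16% of all genes. Itgam, the alpha chain of the complement receptor Mac-1 (chr7:128062640-128118491), held 250, 224 and 235 at 4h and 589, 572 and 538 at 8h (1.26 ± 0.06; adjusted p = 1.90e-35). Itga4, the alpha chain of the receptor VLA-4, rose by 0.70 ± 0.12. Cybb, the membrane-bound catalytic subunit of the phagocyte NADPH oxidase, held 57.9, 103.3 and 76.4 at 4h and 222, 213.7 and 218 at 8h (1.49 ± 0.21), and it was the only 1 of 8 oxidase subunits called (median 0.08). The Toll-like receptor list had 3 risers in 19 (median 0.28), against 3.16% of all genes, each with fewer than 50 normalized counts in every library. Tlr8 stood at 9.35, 16.6 and 25.1 at 4h and 37.8, 43.4 and 29.7 at 8h, Tlr6 at 10.3, 10.1 and 7.33 and then 18.4, 16.5 and 20.97, and Tlr3 at 0 in all 4h libraries and at 7.15, 0.69 and 0.87 at 8h. Without GCSF-OHT 8h replicate 1, 1 member of that list was called, and the calls of Tlr3 and Tlr6 were lost in 9 and 11 of 21 alternatives.

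Of 20 monocyte and macrophage markers tested, 5 rose and 1 fell (median 0.00), against 3.16% of all genes called higher and 2.13% lower. Lyz2, the lysozyme of phagocytes, held 122087, 122787 and 126456 at 4h and 238222, 245738 and 240258 at 8h, a log2 fold change of 0.96 ± 0.06. Adgre1 and Ccr2 were described above, Lyz1 rose by 1.14 ± 0.27 and Mrc1, the mannose receptor, by 1.32 ± 0.51 from a mean of 7.37, a call lost in 6 of 21 alternatives. Mmp12 fell from 1.87, 3.69 and 7.33 to 0, 1.38 and 1.75, values at or near the floor, and its call was likewise lost in 6 of 21.

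Members of the granule lists moved in both directions, and of all genes tested 3.16% were called higher and 2.13% lower. Chil3, a chitinase-like secretory protein of maturing neutrophils and macrophages (chr3:106147554-106167564), held 1967, 1732 and 2068 at 4h and 5580, 5823 and 5328 at 8h, a log2 fold change of 1.54 ± 0.08 (SE; adjusted p = 6.36e-33). Mmp9, the gelatinase of tertiary granules, held 22.4, 14.8 and 23.0 at 4h and 53.1, 40.0 and 36.7 at 8h (1.08 ± 0.20). Adam8, a membrane protease, held 10504, 10839 and 10167 at 4h and 7358, 5987 and 5899 at 8h (-0.72 ± 0.09). Padi4, a histone-citrullinating enzyme placed in the secondary and tertiary granule list, fell from a mean of 23.6 at 4h to 12.3 at 8h (-0.87 ± 0.29). In that list of 18, 2 rose and 2 fell (median -0.06), the fallers being Adam8 and Padi4. Among 12 primary granule proteins 2 rose (median 0.10): Ctsc, the protease that activates granule serine proteases (0.72 ± 0.16), and Ms4a3, a membrane protein of granulocyte-monocyte progenitors (0.61 ± 0.10). Elane, the neutrophil elastase gene, gave -0.19 ± 0.07 and Mpo, myeloperoxidase, 0.31 ± 0.10, neither called. Of 16 S100 proteins and annexins, Anxa6 alone was called, from 737, 713 and 731 at 4h to 1783, 1822 and 1655 at 8h (1.27 ± 0.09), and the median was 0.14.

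Ribosome biogenesis factors were the list with the most falls. Of 50 tested, 21 fell and 0 rose, all 50 changes were below 0, and the median was -0.53, against 2.13% called lower and a median of 0.00 over all genes tested. Their geometric mean was 1444, 1457 and 1431 in the 4h libraries and 975, 1018 and 1045 in the 8h libraries. Rrp12, which takes part in the maturation and export of ribosomal subunits (chr19:41862851-41896173), held 1199, 1168 and 1112 at 4h and 547, 519 and 534 at 8h, a log2 fold change of -1.12 ± 0.08 (SE; adjusted p = 7.06e-25). Dkc1, the pseudouridine synthase dyskerin, held 1574, 1558 and 1582 at 4h and 779, 907 and 940 at 8h (-0.85 ± 0.09). Ncl, nucleolin, held 18634, 19574 and 19209 at 4h and 11541, 11898 and 12352 at 8h (-0.68 ± 0.06). The 2 groups were well separated in each of these, and no 8h library stood out from the rest in all of them. Polr1a, the largest subunit of RNA polymerase I, fell by 0.77 ± 0.07 on the log2 scale, Polr1b by 0.64 ± 0.09, Utp20 by 0.83 ± 0.09, Rrp9 by 0.82 ± 0.10 and Gar1 by 0.77 ± 0.08. Npm1, nucleophosmin (-0.18 ± 0.07), and Fbl, fibrillarin (-0.53 ± 0.07), were not called. Without replicate 1, 20 were called, with a median of -0.48.

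The protein components of ribosomes gave no calls, against 5.29% of all genes tested called in either direction. Of 79 cytosolic ribosomal protein genes, 0 were called, 66 lay below 0 and the median was -0.08. Rplp0 (-0.14 ± 0.05) and Rps2 (-0.13 ± 0.06) were the 2 members with the highest normalized counts. Among 28 aminoacyl-tRNA synthetases 0 were called, with a median of -0.20.

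Genes of DNA replication fell as well. Of 34, 8 (23.5%) fell and 0 rose, all 34 lay below 0, and the median was -0.44, against 2.13% called lower and a median of 0.00 over all genes tested. Mcm2, a subunit of the replicative helicase, held 3534, 3762 and 3417 at 4h and 2027, 2238 and 2033 at 8h (-0.77 ± 0.07; adjusted p = 1.16e-15). Gins1, a partner of that helicase, held 307, 276 and 363 at 4h and 168, 162 and 176 at 8h (-0.89 ± 0.12). Lig1, the ligase of lagging-strand synthesis, held 2630, 2722 and 2627 at 4h and 1610, 1615 and 1597 at 8h (-0.73 ± 0.07). The libraries within each group lay close together in all 3 genes. Mcm7 (-0.75 ± 0.06), Mcm5 (-0.71 ± 0.07), Pole (-0.72 ± 0.08) and Pold1 (-0.59 ± 0.09) were also among the fallers. Among G1 cyclins and CDK inhibitors, Cdkn1b, which restrains entry into S phase, rose from 1491, 1529 and 1678 to 2795, 2343 and 2719 (0.74 ± 0.08), and E2f1, an activator of replication genes, fell by 0.63 ± 0.09 on the log2 scale, while the list of 19 had a median of -0.21. Of 27 mitosis genes 0 were called and 26 lay below 0, with a median of -0.18, and Mki67 stood at 8965, 9999.6 and 9440 at 4h and 9467, 9769 and 8618 at 8h.

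**Figure D2:**
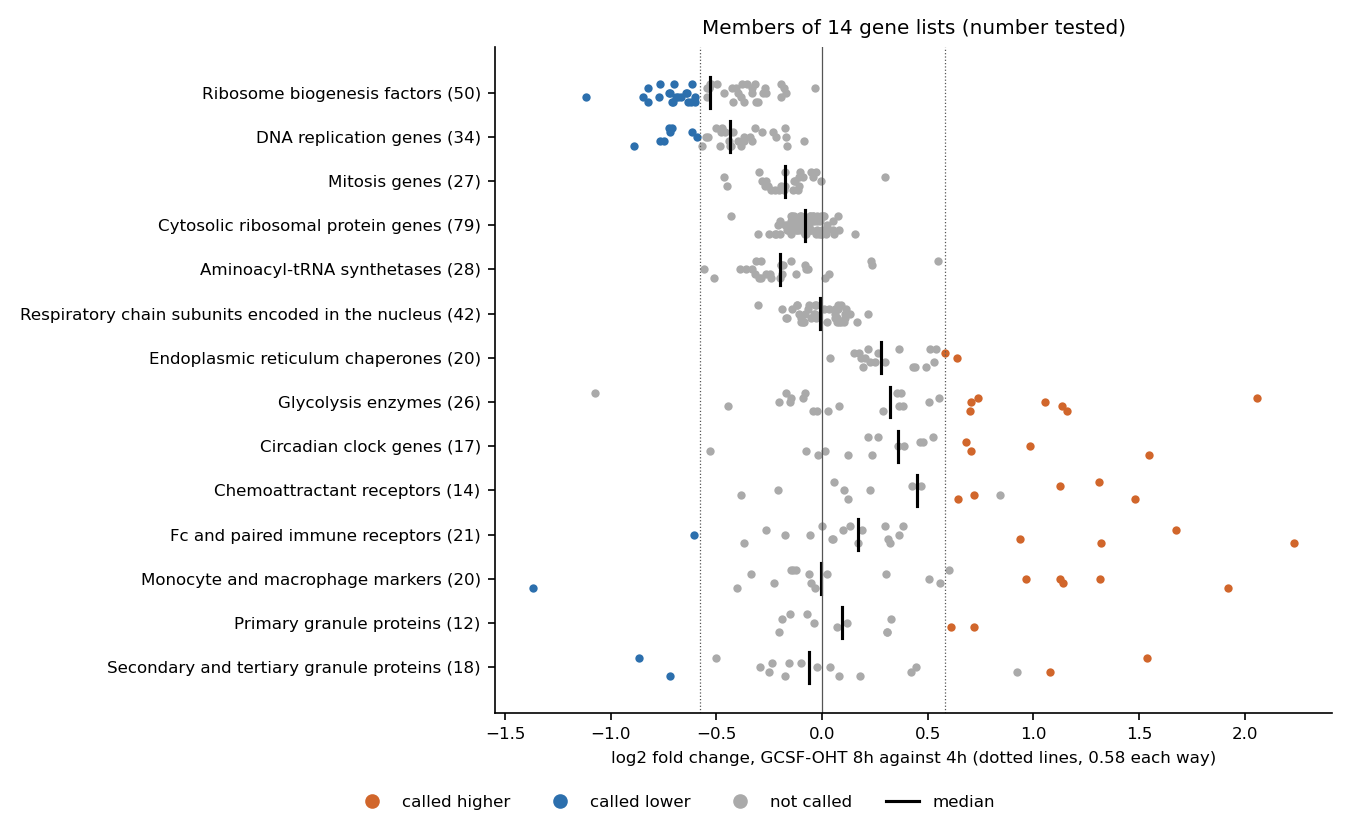
Log2 fold change from GCSF-OHT 4h to 8h of each member of 14 gene lists, with the number of members tested in brackets, orange for members called higher, blue for members called lower, grey for members not called and a black bar at the median of the list. All 50 ribosome biogenesis factors and all 34 DNA replication genes lie left of 0, and the 79 ribosomal protein genes cluster near it.

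In the AP-1 list of 13 genes, Fosl1 and Maff (1.33 ± 0.18; 1.04 without replicate 1) rose, 15.4% against 3.16% of all genes, and Fosb (-0.73 ± 0.18) fell, a call lost without replicate 1 (-0.56). Replicate 1 was the highest 8h library for both risers. Tnfaip3 (0.93 ± 0.14) and Nfkbie (0.67 ± 0.17), which both restrain NF-kB, were 2 of 17 NF-kB factors and feedback inhibitors called, both higher (11.8%). Lif, a cytokine of the IL6 family, fell from 44.9, 37.8 and 53.4 to 14.3, 16.5 and 9.61 (-1.70 ± 0.38), and Osm, of the same family and also in the list of 12 STAT targets, fell from 166, 174.3 and 188 to 105.2, 101.4 and 97.9 (-0.79 ± 0.13). With the chemokine gene Ccl3 (-0.60 ± 0.09), 3 of 22 inflammatory cytokines and chemokines fell, and Il18, from a mean of 2.25 near the floor, rose. Spry1, an inhibitor of growth factor signalling, fell by 0.63 ± 0.12 and, with Dusp2, made 2 of 12 ERK feedback genes (16.7%, against 2.13% of all genes called lower). Ier3 (0.60 ± 0.12; 0.47 without replicate 1) was the 1 of 22 other immediate-early genes called. Among 30 myeloid and progenitor transcription factors, Id2, an inhibitor of basic helix-loop-helix factors, rose from 380, 417 and 448 to 832, 627 and 742 (0.81 ± 0.12), and Tcf3, one of the factors such inhibitors bind, fell from 4906, 4571 and 4228 to 3173, 2783 and 2913 (-0.63 ± 0.10).

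Of 10 lineage and clock regulators described whatever their change, 1 was called, against 5.29% of all genes tested. Gfi1, a repressor needed for neutrophil maturation, stood at 5197, 5030 and 5229 at 4h and 5147, 5336 and 5310 at 8h (0.03 ± 0.06). Cebpa gave -0.26 ± 0.13, Cebpe 0.02 ± 0.10, Zeb2 0.14 ± 0.07, Nab2 0.02 ± 0.12 and Egr1 0.00 ± 0.18, none of them called. Per3, a clock gene, gave 0.53 ± 0.07 (adjusted p = 3.23e-10), below the size needed for a call. Irf8 stood at 1.87, 2.77 and 9.42 at 4h and 5.10, 2.76 and 5.24 at 8h, near the floor. Egr2, the 1 called of 6 EGR factors and NAB corepressors (median 0.01), passed the threshold by a narrow margin, from 4.67, 5.53 and 9.42 to 11.2, 8.96 and 9.61 (0.58 ± 0.22; adjusted p = 0.0381) with overlapping groups, and its call was lost in 9 of 21 alternatives.

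Transport and stress genes gave further single calls, against 3.16% of all genes called higher and 2.13% lower. Slc7a5, a transporter of large neutral amino acids, held 2538, 2572 and 2395 at 4h and 1328, 1265 and 1358 at 8h (-0.93 ± 0.07; adjusted p = 3.41e-20), and Slc7a1, a transporter of arginine and lysine, fell by 0.63 ± 0.06 on the log2 scale. Both stand in the list of 22 ATF4 targets, where Ddit4, an inhibitor of mTOR signalling that is also in the low-oxygen list, rose by 0.82 ± 0.16. Slc11a1, the phagosomal metal transporter Nramp, held 298, 324 and 294 at 4h and 643, 687 and 686 at 8h (1.14 ± 0.13), and with Mt2 (0.61 ± 0.13; 0.42 without replicate 1) it made 2 risers among 22 iron, copper and zinc genes, with Slc39a14 (-0.86 ± 0.10) and Steap3 (-0.62 ± 0.11) as the 2 fallers. All 20 endoplasmic reticulum chaperones lay above 0, with a median of 0.28, and 2 were called, Creld2 (0.64 ± 0.07) and Hsp90b1 (0.58 ± 0.06). Of 38 lysosomal genes, Lipa, the acid lipase, was called (0.67 ± 0.06), and of 23 interferon-stimulated genes, Ddx58, a sensor of viral RNA (0.64 ± 0.10), and Ifi44, whose values were at or near the floor, were called.

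The remaining lists held 0 called members: C/EBP factors (7 genes, median -0.08), myeloid cytokine receptors (16, median 0.02), antigen presentation genes (13, median 0.02), the BCL2 family (16, median -0.05), cholesterol genes (29, median 0.08), heat shock proteins (17, median -0.11) and leukotriene and prostaglandin genes (15, median 0.02). Csf3r, the GCSF receptor itself, stood at 3623, 3783 and 3278 at 4h and 5253, 5344 and 4787 at 8h (0.53 ± 0.06), just short of a call in size. Over the 38 lists, 830 distinct genes were tested, of which 52 (6.27%) were called higher and 45 (5.42%) lower, against 3.16% and 2.13% of all genes. The low-oxygen list is not among the 38.

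The genes of the step had different histories within the GCSF course. From undifferentiated cells, in IL3 without OHT, to 0h the cytokine also changed to GCSF. Bnip3 averaged 11392 ± 478 (SD, n = 3) in undifferentiated cells, 1293 ± 144.6 at 0h, 2690 ± 105.1 at 1h, 858 ± 44.2 at 2h, 458 ± 43.2 at 3h, 554 ± 37.02 at 4h, 4199 ± 1568 at 8h, 8922 ± 3745 at 12h and 7018 ± 1009 at 24h. Slc2a1 averaged 15390 ± 259 in undifferentiated cells, 1144 ± 77.4 at 0h, 4615 ± 151.1 at 1h, 2762 ± 215.6 at 2h, 1189 ± 53.9 at 3h, 1165 ± 70.5 at 4h, 5075 ± 1928 at 8h and 12406 ± 4772 at 12h. Both were high in undifferentiated cells and had a local high at 1h, where Slc2a1 was near its 8h mean. The 1h means lay below those at 8h and 12h. Both genes were low at 3h and 4h, and their libraries were widely spread at 8h and again at 12h and 20h. Chil3 averaged 1380 ± 48.3 at 0h, 1922 ± 172.5 at 4h, 5577 ± 248 at 8h, 12023 ± 588 at 12h and 35804 ± 985 at 24h, and Cybb 46.5 ± 24.6, 79.2 ± 22.8, 218 ± 3.92, 410 ± 17.7 and 922 ± 50.4 at the same times. In both the means went up at each later time point shown, with a narrow spread at 8h.

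Among fallers whose course was followed, Rrp12 averaged 979 ± 15.6 at 0h, 1160 ± 44.1 at 4h, 533 ± 14.01 at 8h, 668 ± 84.96 at 12h and 679 ± 32.3 at 24h, and stayed below its 4h mean. Mcm2 averaged 4297 ± 270 at 0h, 3571 ± 176 at 4h, 2100 ± 120 at 8h, 3252 ± 418 at 12h and 3268 ± 156 at 24h, so the 8h mean was the lowest of the 5. Nkain1 averaged 28.1 ± 3.32 at 0h, 116.4 ± 13.5 at 4h, 25.6 ± 6.74 at 8h and 27.3 ± 4.63 at 24h, and Iglon5 90.8 ± 24.6, 173.1 ± 20.1, 37.6 ± 4.82 and 49.1 ± 15.3 at the same times. Iglon5 had its highest mean at 2h, 568 ± 65.5, and stood at 280.1 ± 15.8 at 3h, so it was already coming down before 4h.

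**Figure D3:**
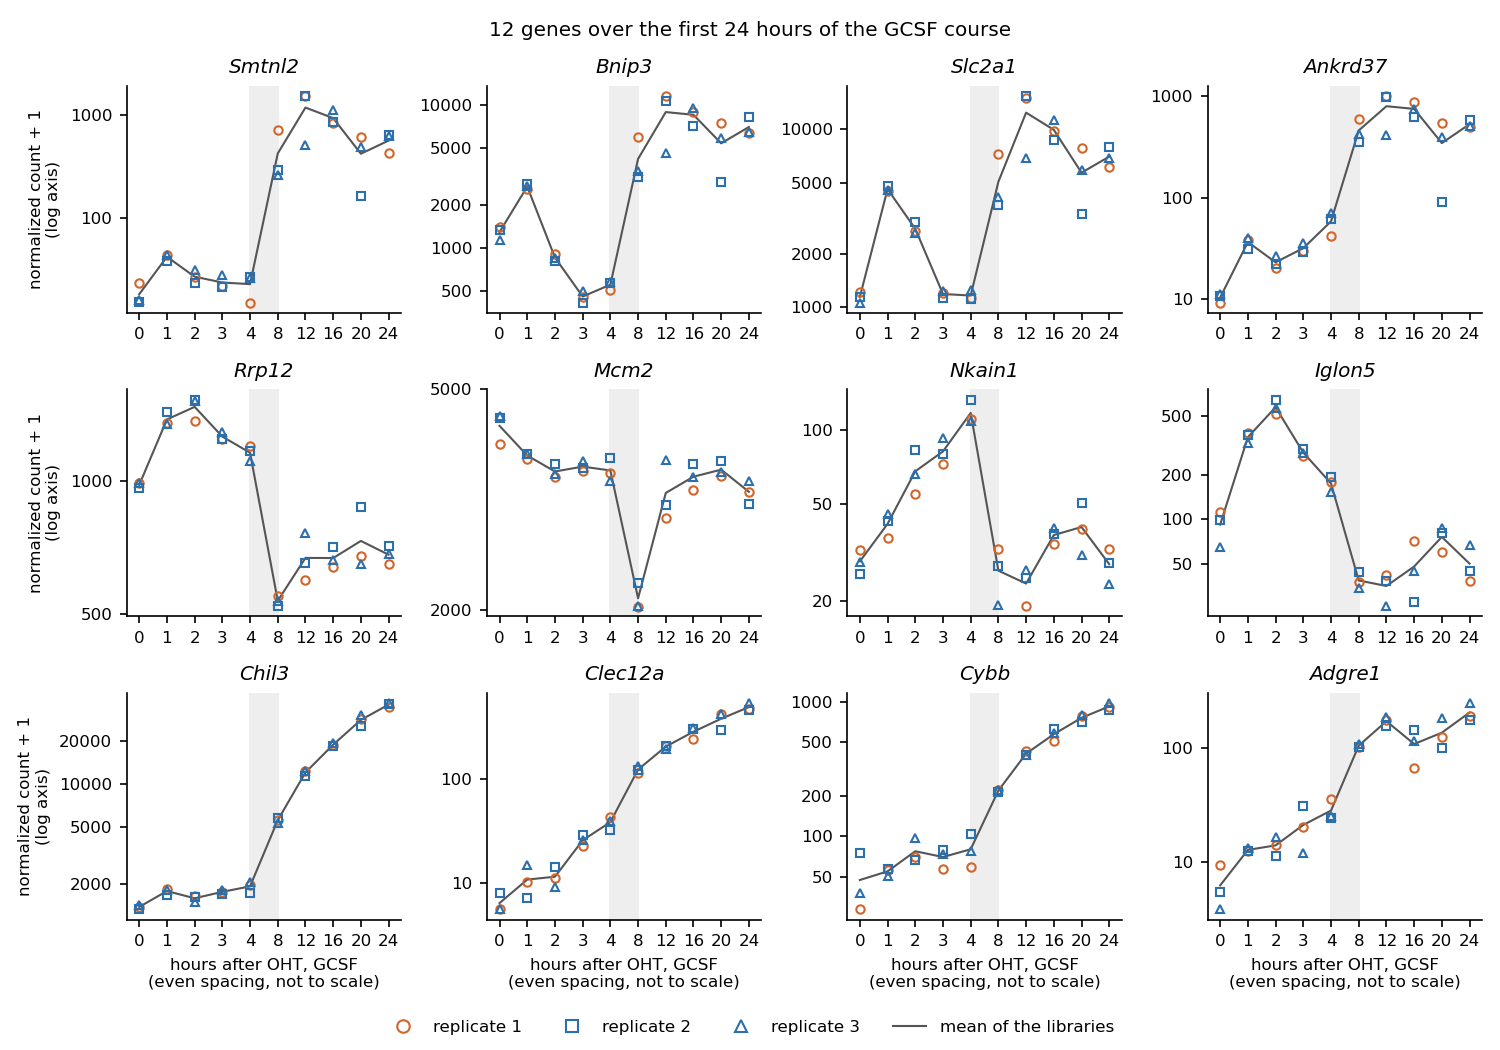
Normalized count plus 1 on a log axis against hours after OHT in GCSF (evenly spaced, not to scale) for 12 genes, with a symbol for each library, replicate 1 in orange, the mean as a line and the interval from 4h to 8h shaded. Smtnl2, Bnip3, Slc2a1 and Ankrd37 rise with a wide spread, and Rrp12 and Mcm2 drop at 8h. Iglon5 peaks at 2h and Nkain1 at 4h, the start of the step. Chil3, Clec12a and Cybb climb from 4h on with narrow spread at 8h. Adgre1, also narrow at 8h, climbs to 12h and is lower at 16h and 20h.

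A pair of comparisons from the same course that share no library with the step were used to ask how the called genes behaved earlier and later. From GCSF 0h to GCSF-OHT 3h, 3.18% of all genes tested were called higher and 2.3% lower (5.48% in either direction). Of the 550 risers of the step, 63 (11.5%) had been called higher in that interval and 76 (13.8%) lower. Of the 371 fallers, 52 (14.02%) had been called higher and 5 (1.35%) lower. Nos2, Bnip3, Atp7b, Aldh1l2, Arl5c and Grb10, an adaptor of growth factor receptors, fell by 3h and rose from 4h to 8h. Ankrd37, Adgre1, Clec12a, Milr1, Cybb and Sirpb1c rose in both intervals, Iglon5, Nkain1, Vav2, Txnrd3, Ankrd13b and Eda2r rose and then fell, and Shank3, Dipk1b, Thbs1 and Hr fell in both. Thbs1, thrombospondin, averaged 13758 ± 651 at 0h, 8780 ± 325 at 3h, 6795 ± 191.4 at 4h and 3795 ± 83.004 at 8h.

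From 12h to 24h, 1.42% of all genes tested were called higher and 1.22% lower (2.65% in either direction). Of the 550 risers, 46 (8.36%) were called higher in that interval and 41 (7.45%) lower, and of the 371 fallers, 8 (2.16%) were called in each direction. Chil3 (1.58), Clec12a (1.253), Cybb (1.17) and Tyrobp (1.28) were among those that rose again by these log2 fold changes. Slc2a1 (-0.74), Fosl1 (-0.81) and Pfkl (-0.65) were among those that fell.

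**Figure D4:**
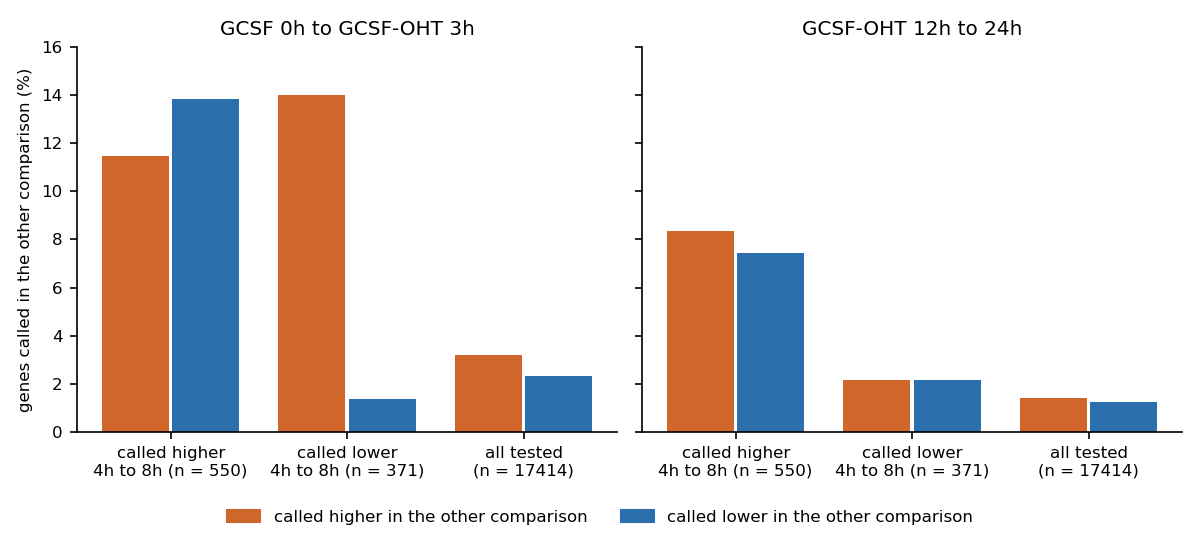
Percentage of genes called higher (orange) or lower (blue) from GCSF 0h to GCSF-OHT 3h (left) and from GCSF-OHT 12h to 24h (right), for the 550 risers of the step, the 371 fallers and all 17414 genes tested. Fallers of the step had been called higher by 3h in 14.02% and lower in 1.35%, and risers had been called in both directions.

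The same 4 hours in IL3 gave 847 higher and 987 lower calls (4.86% and 5.67% of genes tested, 10.5% in all), from 6 libraries that are all distinct from the GCSF ones. Of the 550 genes that rose in GCSF, 207 (37.6%) were called higher in IL3 and 18 lower, and of the 371 that fell, 77 (20.8%) were called lower and 19 higher. The difference between the steps, tested as an interaction, was called in the positive direction (GCSF minus IL3) for 832 genes (4.78%) and in the negative direction for 723 (4.15%), together 8.93%. It was called positive for 29.6% of the GCSF risers and negative for 46.9% of the fallers. The choice of members on the GCSF step favours these directions. OHT dose, cytokine and prior culture cannot be told apart in this difference.

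Among the 15 largest rises in GCSF, 12 were also called higher in IL3, against 4.86% of all genes tested. The difference of the steps was called positive for 10 of the 15 and negative for 1. Of the 15 largest falls, 4 were called lower in IL3 and 2 higher, against 5.67% and 4.86% of all genes. Their difference was called negative for 10 and positive for 1. Choosing these genes on the GCSF step favours such differences. Slc2a1 held 3080, 1795 and 1788 at IL3-OHT 4h and 5959, 7620 and 7910 at 8h, and the difference of the steps was 0.33 ± 0.23 (SE; adjusted p = 0.32). Coro1a rose more in IL3, from 40.6, 41.2 and 59.1 to 328, 359 and 326, with a difference of -1.23 ± 0.15 (adjusted p = 4.25e-11). Bnip3 rose less there, from 892, 679 and 586 to 2172, 2985 and 3405, with a difference of 0.88 ± 0.25 (adjusted p = 0.00451). IL3-OHT 4h replicate 1 was high for Slc2a1, and more so for Ankrd37, with 320 against 47.7 and 69.1 in its partners.

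The ribosome biogenesis factors were also compared with the IL3 arm. In IL3, 1 of the 50 rose and 0 fell (median 0.04), against 4.86% and 5.67% of all genes tested. Their geometric mean there went from 2314, 2277 and 2354 to 2452, 2431 and 2393. The difference of the steps was called negative for 28 of the 50 (56%, against 4.15% of all genes) and positive for 0, and it was -1.44 ± 0.11 for Rrp12 and -1.25 ± 0.13 for Dkc1. Of the 34 DNA replication genes the difference was negative for 12 (35.3%) and positive for 0, with Mcm2 at -0.95 ± 0.11. Heat shock proteins were called higher in IL3 for 6 of 17 (35.3%, against 4.86% of all genes) and lower for 1, with 0 called in GCSF and a called negative difference for 4 (23.5%, against 4.15%): Hspa8 went from 20513, 18846 and 20125 to 36992.5, 32756 and 35675 in IL3, and its difference was -0.93 ± 0.09. Gfi1 rose in IL3, from 871, 785 and 845 to 1451, 1412 and 1410, with a difference of -0.74 ± 0.08. These list counts describe the members and were not tested as sets.

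Several genes went in opposite directions in the 2 arms. Eda2r and Phlda3, known targets of p53, and Inka2 fell in GCSF (-1.22 ± 0.25, -0.88 ± 0.12 and -0.78 ± 0.12) and rose in IL3 (1.15 ± 0.25, 1.43 ± 0.12 and 1.24 ± 0.12). Slc19a1 likewise rose in IL3 (0.89 ± 0.13), as did Dctd, a deaminase of deoxycytidylate (0.80 ± 0.14), against falls in GCSF of 1.23 ± 0.13 and 0.97 ± 0.14. Zbtb20, a transcriptional repressor, and Maml2, a coactivator of Notch, rose in GCSF (0.92 ± 0.20 and 0.62 ± 0.21) and fell in IL3 (-0.99 ± 0.20 and -1.31 ± 0.21).

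**Figure D5:**
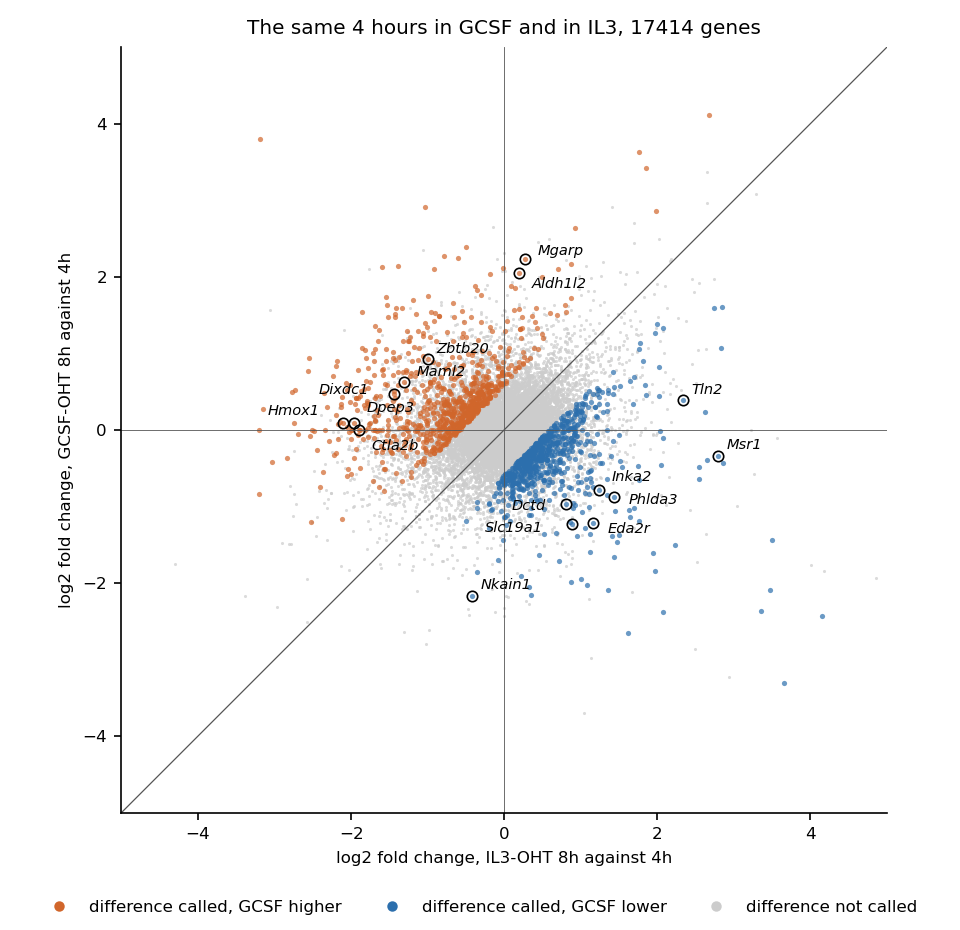
Log2 fold change from 4h to 8h in GCSF-OHT (vertical) against that in IL3-OHT (horizontal) for 17414 genes, with orange and blue points for genes whose difference was called positive or negative, the diagonal marking equal change and circles around the 8 largest named differences in each direction. Eda2r, Phlda3, Inka2, Slc19a1 and Dctd lie in the lower right corner, with falls in GCSF and rises in IL3.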

How the data were processed

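PolyA RNA of PUER cultures was sequenced by the authors, transcripts were quantified with Salmon (selective alignment, GRCm38), and the deposited signal is the count per gene divided by each library's DESeq2 size factor. How transcripts were summed to genes is not given in the sources used here. Nonzero values were whole multiples of 1 step per library in 100.0% of cases, which gave whole reads for the alternative count tests. Groups were taken from the sample titles. Genes reaching a normalized count of 5 in at least 1 library (17414 of 36255) were fitted with limma 3.58.1 in R 4.3.3 on log2(value + 1), which understates changes of low genes, with the 54 groups and 159 libraries in the fit sharing 1 estimate of the spread. As in the study's methods, the time points 96h and 144h of the IL3 arm were not fitted. P-values were adjusted by the Benjamini-Hochberg method over all genes tested. They measure the spread between separate cultures of 1 line within each group. Because each time point was kept on its own plate, they do not include spread between plates or between repeated experiments. Genes were called when the adjusted p was below 0.05 and log2 expression moved by more than 0.58 either way. The study's methods used DESeq2, but the deposited values are normalized, so limma was the main test and edgeR 4.0.16 and DESeq2 1.42.0 on recovered reads were alternatives, beside other pseudocounts, filters, scalings and sets of libraries. Floors cover counting error only.

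Named genes were the 15 largest rises and 15 largest falls with a mean of at least 50 and groups that did not overlap, up to 4 called members of each list (or, with none called, the 2 of highest mean), 10 regulators, and the 8 largest differences between arms in each direction. Other genes in the text, among them further list members and those with a history before 4h, were chosen after their values were seen. The members and lists were chosen with earlier results of these data known, and the low-oxygen list and the ACGTG search were added after the values were seen. Gene positions are from GENCODE vM21 (GRCm38), which held 1 gene of that symbol for 97.2% of genes tested. Figures were drawn with Matplotlib 3.10.9. Values of some list members are not reported here.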

Additional observations from a re-analysis of the deposited data

Results flagged for a closer look

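The 16 genes below were singled out because the change from 4h to 8h differed between the arms by the interaction test in limma, as the 8 largest differences in each direction (GCSF minus IL3, log2). All 16 kept their call in every one of the 21 alternatives. The arms also differ in OHT dose and prior culture, which cannot be told apart from the cytokine.

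Among the positive differences, Hmox1, heme oxygenase, gave 2.19: it held 1122, 1070 and 998 at 4h and 1347, 1025 and 1032 at 8h in GCSF, against 18950.5, 17024 and 17822 and then 3869, 4204 and 4396 in IL3. Dpep3, a dipeptidase, gave 2.05, and Ctla2b, which has close relatives in the genome, 1.90, and both were called lower in IL3 and not called in GCSF. Dixdc1 gave 1.91, with GCSF-OHT 8h replicate 1 at 94.9 against 37.2 and 43.7. Maml2 gave 1.93 and Zbtb20 1.91, each called higher in GCSF and lower in IL3. Mgarp gave 1.95 and Aldh1l2 1.85, both called in GCSF alone, with GCSF-OHT 8h replicate 1 highest.

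Among the negative differences, Msr1, a scavenger receptor, gave -3.13: it held 18.6, 28.2 and 26.4 at 4h and 172.1, 172.4 and 172.3 at 8h in IL3, while its GCSF values were near the floor. Eda2r gave -2.37, Phlda3 -2.32, Slc19a1 -2.12, Inka2 -2.02 and Dctd -1.77, and these 5 were called lower in GCSF and higher in IL3. Phlda3 held 1471, 1348 and 1419 at 4h and 774, 745 and 777 at 8h in GCSF, against 774, 842 and 883 and then 2149, 2553 and 2069 in IL3. Tln2, a talin, gave -1.94 and was called higher in IL3 alone. Nkain1 gave -1.75 and was called lower in GCSF alone.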

How the results depend on the processing

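The step was recomputed under 21 alternatives, 9 of method or setting and 12 that left out 1 library each. Genes called higher numbered 460 (without GCSF-OHT 8h replicate 1) to 613 (upper-quartile scaling), and genes called lower 330 (upper-quartile scaling) to 408 (without GCSF-OHT 8h replicate 2). Leaving out 1 library gave 460 to 568 higher and 336 to 408 lower. Fallers already lower by 3h, 5 in the report, numbered 8 with edgeR and 9 with DESeq2 and 4 to 10 when 1 library was left out, with 10 in the absence of GCSF-OHT 8h replicate 1. Fallers lower from 12h to 24h, 8 in the report, numbered 13 with DESeq2. Chemoattractant receptors called higher numbered 3 when the fit held only the groups compared, and 3 to 5 when 1 library was left out. The cause of these shifts was not tested.

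Some uncalled genes changed sign. When 1 library was left out, log2 fold changes ranged from -0.035 to 0.050 for Bax, -0.068 to 0.024 for Mki67, -0.28 to 0.096 for Lars2, -0.022 to 0.023 for Alox5ap, -0.031 to 0.059 for Cebpe, -0.064 to 0.11 for Egr1, -0.087 to 0.13 for Nab2, -0.26 to 0.67 for Irf8, -0.046 to 0.15 for Hmox1, -0.049 to 0.38 for Dpep3, -0.38 to 0.48 for Ctla2b and -0.86 to 0.46 for Msr1. Alox5ap was 0.024 with upper-quartile scaling. Irf8 was -0.097 with edgeR and -0.10 with DESeq2. Ctla2b was -0.011 with a pseudocount of 5, -0.14 with edgeR and -0.15 with DESeq2. Msr1 was 0.081 with edgeR and 0.085 with DESeq2.

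The replicate numbers did not pair the samples (correlations of deviations between same-numbered libraries of -0.077, -0.005 and 0.069), and with replicate number as a block 549 genes were called higher and 370 lower. Genes within a few normalized counts of the floor cannot be ranked at this depth.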
